A study of Mus musculus with 6 samples.

Results

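The genes described here are the mouse semaphorins and plexins, together with 6 genes of the Slit, Robo, netrin and Unc5 guidance systems (*Slit2*, *Slit3*, *Robo1*, *Robo4*, *Unc5b* and *Ntn1*), in liver sinusoidal endothelial cells (LSECs). They were found by symbol, and 35 of the 23282 gene rows matched: 20 semaphorins, 9 plexins and the 6 others. The genes to describe were then selected on their level, a mean of at least 10 counts over all 6 libraries regardless of genotype, which 19 of the 35 reached. Just inside this limit was *Sema3e* with a mean of 11.8 counts, and just outside it was *Sema4a* with a mean of 6.33 counts.

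The libraries came from LSECs of *Txnip-/-* mice (3 libraries) and of WT mice (3 libraries). *Txnip* encodes thioredoxin-interacting protein, an arrestin-family protein that binds thioredoxin and restrains glucose uptake. The *Txnip-/-* mice lack the gene in the whole body on the C57BL/6J background and the WT mice were C57BL/6J, so a difference in LSECs may also reflect the loss of TXNIP in other cells, and the age and sex of the animals behind these libraries are not given in the sources used here. Mice of the study were kept on standard chow, and liquid diets were used in its ethanol experiments; which diet preceded the isolation of these cells is not stated. The cells were isolated by collagenase perfusion of the liver, a density gradient and magnetic beads against the endothelial antigen CD146. The study's methods have selected LSECs put into culture, and whether this RNA was taken before or after culture is not stated. RNA was sequenced from the 3′ ends of transcripts. The labels do not say whether the libraries of a genotype came from separate mice, so p-values measure only the spread between these libraries.

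Semaphorins are secreted or membrane-bound guidance cues, first known for repelling growing axons, and plexins are their receptors; the cytoplasmic part of a plexin acts on small GTPases, which loosens adhesion and collapses the leading edge of the cell. Secreted class 3 semaphorins mostly need a neuropilin as co-receptor, whereas *Sema3e* binds plexin D1 directly and restrains vessel sprouting through it. Slit proteins signal through Robo receptors and netrins through Dcc and Unc5 receptors, and *Robo4* and *Unc5b* are the members of these families best known from endothelium, where they act in vessel guidance and barrier function.

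*Robo4* was the one gene of the 18 that could be tested to pass the criteria for a changed gene, so 30 bases of its promoter are shown. The gene lies on chromosome 9 at 37401897 to 37415115 on the plus strand (GRCm38, GENCODE M21). The 30 bases at chr9:37401914-37401943 (GRCm38, plus strand, from the RefSeq promoter table) lie 58 to 29 bases before the RefSeq start of the gene. They are inside the GENCODE bounds of the gene, which begin upstream of the RefSeq start. Capitals mark GGAA and its reverse complement TTCC, the core recognised by ETS factors, a family with central roles in endothelial transcription.
Robo4 promoter: gggccaggcaGGAAgcatccgtTTCCtcaa
The 250 bases upstream of the RefSeq start held 3 matches to GGAA on either strand, of which 2 are in the stretch shown. The stretch was chosen from these bases for its number of matches, so their share in it follows from that choice. A count of this size was common, since 54.7% of 32851 promoter windows of the same length held 3 or more and 93.4% held at least 1.

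Library totals ran from 9147764 to 10193952 counts, and a count of 3, the limit that a count of 0 allows, was worth 0.286 to 0.335 CPM, the counts of a gene relative to the TMM-scaled library total. *Txnip* had 191 to 269 counts in the *Txnip-/-* libraries and 1901 to 2019 counts in the WT libraries, with a log2 fold change of −3.02 (edgeR quasi-likelihood test, adjusted p = 6.94e-10), so every library matched its label. WT replicate 3 stood apart from the other WT libraries. The 45S pre-ribosomal RNA row *Rn45s* took 17.8% of its counts, near the 16.8 to 18.6% of the *Txnip-/-* libraries and above the 9.68 and 10.03% of the other WT libraries. Over genes averaging at least 10 counts, *Rn45s* included, the chi-square per degree of freedom between WT replicates 1 and 2 was 3.93. WT replicate 3 gave 37.0 and 40.2 against them and 13.3 to 17.1 against the *Txnip-/-* libraries. The part of *Rn45s* in these values was not separated. Values without this library are given beside the results that it moved most.

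Plexins were the more abundant side of the system. Because only transcript ends were sequenced, CPM levels of different genes were compared without division by length. The 6 plexins above the limit had a median level of 51.1 CPM and ran from 28.5 CPM (*Plxna4*) to 358 CPM (*Plxna2*), while the 8 tested semaphorins had a median of 13.5 CPM and ran from 4.10 CPM (*Sema3a*) to 62.9 CPM (*Sema6a*). The neuropilins, co-receptors of class 3 semaphorins, stood at 476 CPM (*Nrp1*) and 603 CPM (*Nrp2*). *Robo4* at 355 CPM was at the level of *Plxna2*, and *Unc5b* was above every semaphorin, whereas the netrin and Slit genes among the 35 were scarce: *Ntn1* had 1.84 CPM, no library held more than 5 counts of *Slit3*, and *Slit2* had none.

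**Figure D1:**
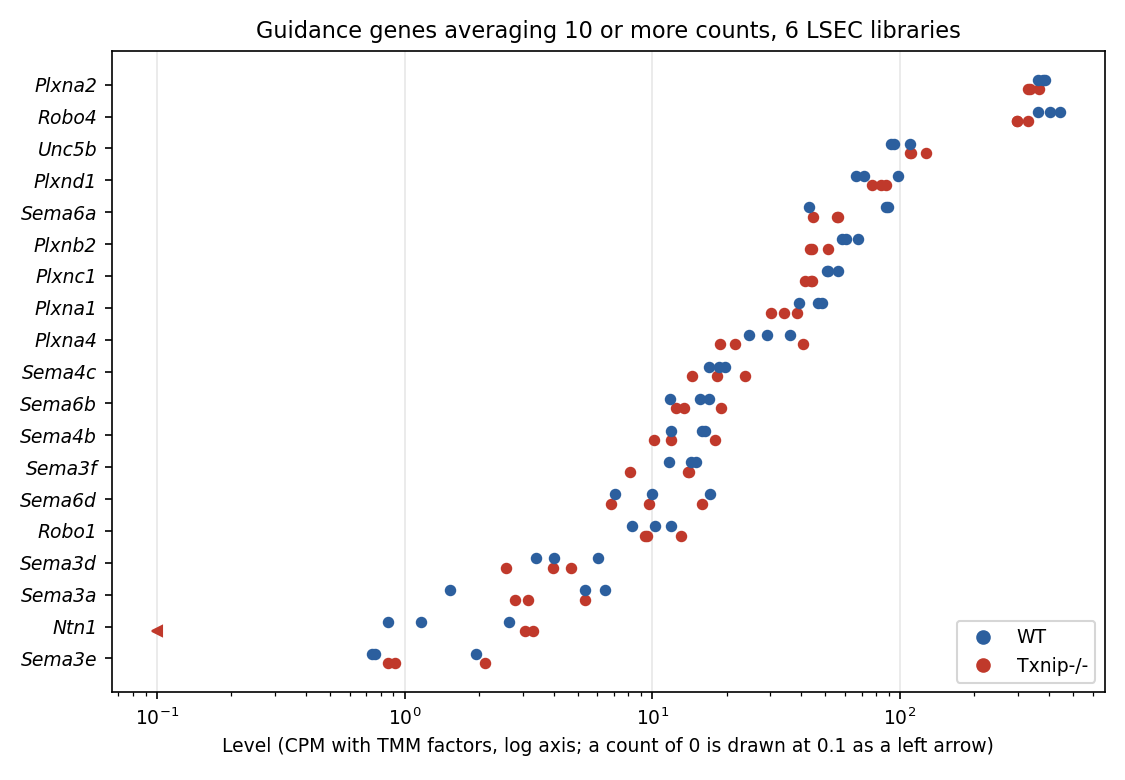
Level of the 19 guidance genes averaging at least 10 counts, in each of the 6 libraries (points; CPM on a log axis, WT and Txnip-/- in separate colours). *Plxna2* and *Robo4* lie highest (358 and 355 CPM on average), 5 of the 9 semaphorins average between 10 and 20 CPM, and the genotypes overlap for 14 of the genes shown.

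Between genotypes, few of these genes differed by more than the spread between libraries. A gene was called when its adjusted p was under 0.05 (edgeR, Benjamini-Hochberg over 11583 genes) and its fold change was above 1.3. The study's criterion is worded as a log fold change above 1.3 and was read here as a fold of 1.3. *Robo4* alone was called, as lower in *Txnip-/-* LSECs, against 1.44% of all genes called in either direction and 0.932% called lower. With a log2 fold change above 1.3 in its place, no guidance gene was called, since *Robo4* did not reach it. At an unadjusted p under 0.05, 5 of the 18 were lower (*Robo4*, *Plxnb2*, *Plxna1*, *Sema6a* and *Plxnc1*), against 6.05% of all genes, and 1 was higher (*Unc5b*), against 5.48% of all genes. In either direction this made 6 of 18 guidance genes, beside 1336 of 11583 genes tested. Without WT replicate 1 it was 3 of 18 (1002 of 11973 genes) and without WT replicate 2 it was 3 of 19 (946 of 11951). Without WT replicate 3 it was 5 of 19 (1692 of 11922). Leaving out *Txnip-/-* replicates 1, 2 or 3 gave 5 of 18, 4 of 19 and 5 of 19 (1271 of 11897, 1276 of 11924 and 1299 of 11938). The *Txnip-/-* and WT libraries did not overlap for 4 genes that were lower (*Robo4*, *Plxnb2*, *Plxna1* and *Plxnc1*; 8.94% of all genes) and 1 that was higher (*Unc5b*; 8.43% of all genes). In all, 12 of the 18 (66.7%) had a lower fitted level in *Txnip-/-* LSECs, compared with 50.004% of all genes, and the median log2 fold change was −0.15 beside −2.75e-05 over all genes. The genes were chosen with earlier results of these data known, so these shares are descriptions.

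**Figure D2:**
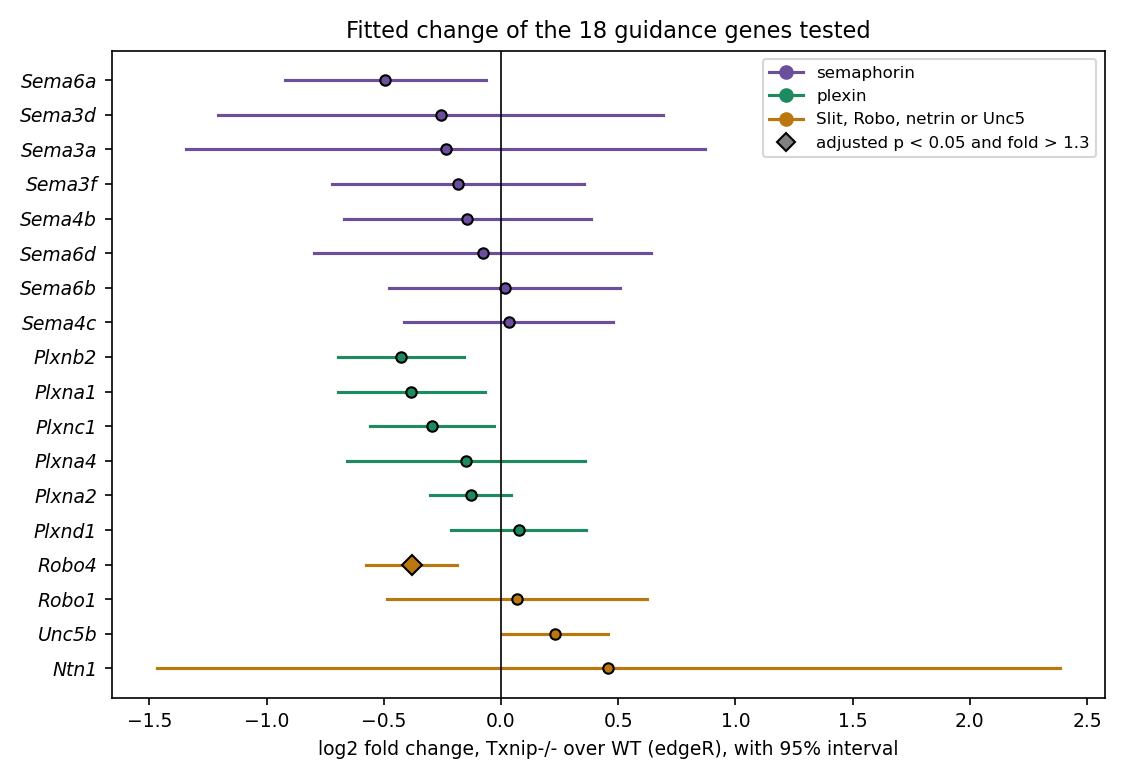
Fitted log2 fold change of *Txnip-/-* over WT LSECs for the 18 guidance genes tested (points) with the 95% interval (lines), coloured by family. The interval of *Robo4* runs from −0.58 to −0.19 and is the one marked as called, while 12 intervals span 0.

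The precision differed with the level. The 8 genes above 30 CPM had standard errors of 0.082 to 0.20 on the log2 scale and included all 6 genes with an unadjusted p under 0.05, whereas the 10 genes below 30 CPM had standard errors of 0.21 to 0.91 and included none. Over all genes the corresponding shares were 14.3% above and 9.33% below 30 CPM. This limit was set after the values were seen. The standard errors near it were close, at 0.20 for *Sema6a* above and 0.21 for *Sema4c* below.

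Among the plexins, 5 of 6 had lower levels in *Txnip-/-* LSECs, with a median log2 fold change of −0.22, and none was called. For 3 of the receptors the values kept the genotypes apart in every library. *Plxnb2*, a receptor for class 4 semaphorins including *Sema4c*, had 43.4, 51.2 and 44.2 CPM in *Txnip-/-* replicates 1 to 3 and 58.4, 60.7 and 67.6 CPM in WT replicates 1 to 3. Every *Txnip-/-* library was below every WT library, and the log2 fold change was −0.43 (SE 0.13, 95% interval −0.69 to −0.16, edgeR adjusted p = 0.129). *Plxnc1*, the receptor of *Sema7a*, had 41.2, 44.3 and 43.6 CPM in *Txnip-/-* and 51.2, 50.9 and 56.4 CPM in WT LSECs. Its groups were tight and separate, but the difference was small, with a log2 fold change of −0.29 (SE 0.13, adjusted p = 0.366). *Plxna1*, which pairs with neuropilins and also binds *Sema6d* directly, had 38.5, 30.3 and 34.1 CPM in *Txnip-/-* and 39.0, 48.4 and 46.6 CPM in WT LSECs. The highest *Txnip-/-* library and the lowest WT library nearly touched, and the log2 fold change was −0.38 (SE 0.15, adjusted p = 0.303). These 3 receptors are encoded on chromosome 15 at 89155549 to 89180788 (*Plxnb2*), chromosome 10 at 94790866 to 94944835 (*Plxnc1*) and chromosome 6 at 89316314 to 89362620 (*Plxna1*), all on the minus strand (GRCm38, GENCODE M21).

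The most abundant plexin had the smallest fitted difference of the 5. *Plxna2*, a receptor of class 6 semaphorins, made up 58.7% of the summed plexin level and had 334, 329 and 363 CPM in *Txnip-/-* and 377, 362 and 384 CPM in WT LSECs. The groups overlapped by a single pair of libraries, and the 95% interval of the log2 fold change ran from −0.30 to 0.044 around −0.13 (adjusted p = 0.6). *Plxnd1*, the endothelial receptor of *Sema3e*, had 76.8, 88.2 and 83.7 CPM in *Txnip-/-* and 71.4, 66.5 and 98.5 CPM in WT LSECs. WT replicate 3 was the highest of the 6 and WT replicates 1 and 2 were the lowest, and the log2 fold change was 0.075 (95% interval −0.21 to 0.36, adjusted p = 0.904). Without WT replicate 3 it was 0.27 (adjusted p = 0.295). *Plxna4*, a receptor of *Sema3a* and *Sema6a*, spanned 18.9 to 40.6 CPM in *Txnip-/-* and 24.6 to 36.1 CPM in WT LSECs, with an adjusted p of 0.889. Summed over all 9 plexins, the level was 576 ± 13.9 CPM (SD, n = 3) in *Txnip-/-* and 643 ± 30.1 CPM (SD, n = 3) in WT LSECs, and the 3 sums of each genotype did not overlap. The remaining plexins were rare: *Plxnb1*, the receptor of *Sema4d*, had 0, 4 and 0 counts in *Txnip-/-* and 14, 7 and 7 counts in WT libraries, *Plxna3* had at most 3 counts in a library, and *Plxnb3* had none.

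**Figure D3:**
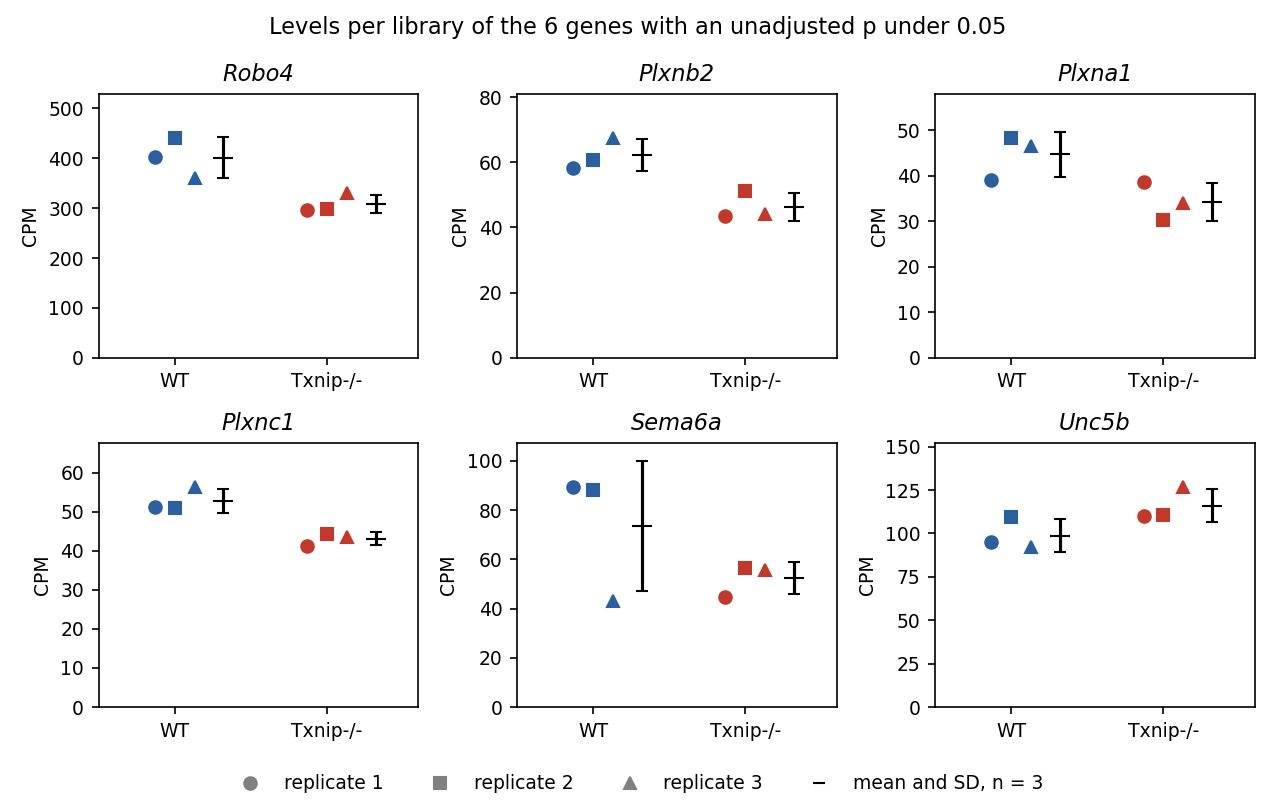
Level in each library (points; CPM) of the 6 guidance genes with an unadjusted p under 0.05, with the mean and SD of the 3 libraries of each genotype. *Robo4*, *Plxnb2*, *Plxna1* and *Plxnc1* are lower in all 3 Txnip-/- libraries than in any WT library, *Unc5b* is higher, and for *Sema6a* WT replicate 3 (42.9 CPM) lies below the Txnip-/- libraries.

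Among the semaphorins, 6 of the 8 tested genes had lower levels in *Txnip-/-* LSECs, with a median log2 fold change of −0.16, but for none were the genotypes separate. *Sema6a*, a transmembrane cue that binds class A plexins, was the most abundant and supplied 43.0% of the summed semaphorin level. It had 44.8, 56.4 and 55.6 CPM in *Txnip-/-* and 89.5, 88.0 and 42.9 CPM in WT LSECs. WT replicates 1 and 2 were well above all *Txnip-/-* libraries, and WT replicate 3 was the lowest of the 6. The log2 fold change was −0.49 (SE 0.20, edgeR adjusted p = 0.339) over all libraries and −0.76 (adjusted p = 0.00127) without WT replicate 3, whereas without WT replicates 1 and 2 it was 0.28. The summed semaphorin level followed this gene, with 130, 139 and 133 CPM in *Txnip-/-* and 175, 172 and 128 CPM in WT LSECs.

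The other semaphorins spread as widely within a genotype as between genotypes. Of the class 6 cues, *Sema6b* had 12.5, 13.5 and 18.9 CPM in *Txnip-/-* and 15.6, 17.0 and 11.8 CPM in WT LSECs, and *Sema6d* had 15.9, 6.83 and 9.73 CPM in *Txnip-/-* and 7.11, 10.002 and 17.1 CPM in WT LSECs. In both genes the libraries of the genotypes were interleaved, and without WT replicate 3 the log2 fold change turned from 0.015 to −0.12 for *Sema6b* and from −0.079 to 0.33 for *Sema6d*. Of the class 4 cues, which are membrane proteins that signal through B plexins, *Sema4c* had 14.4 to 23.8 CPM in *Txnip-/-* and 16.9 to 19.8 CPM in WT LSECs, and *Sema4b* had 10.2 to 17.96 CPM in *Txnip-/-* and 11.95 to 16.4 CPM in WT LSECs. The last 500 exonic bases of *Sema4c* overlap an exon of *D430040D24Rik* on the opposite strand, and because strand use in the counting is not given, reads of the pair cannot be told apart. *Sema3f*, a secreted ligand of neuropilin-2, had 14.1, 14.0 and 8.13 CPM in *Txnip-/-* and 15.1, 14.3 and 11.6 CPM in WT LSECs, with overlapping groups. *Sema3a*, the classical ligand of neuropilin-1, had 26 to 48 counts in *Txnip-/-* and 16 to 61 counts in WT libraries, and *Sema3d* had 24 to 42 counts in *Txnip-/-* and 35 to 57 counts in WT libraries. The 95% intervals of their log2 fold changes were wide, from −1.34 to 0.87 for *Sema3a* and from −1.21 to 0.69 for *Sema3d*, and their directions also turned without WT replicate 3.

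*Sema3e*, the direct ligand of plexin D1, had 19, 9 and 8 counts in *Txnip-/-* and 20, 8 and 7 counts in WT libraries. It reached the mean of 10 counts but not the filter on low counts, so it has no value in the fit. The 2 groups held nearly the same counts, 36 in all *Txnip-/-* and 35 in all WT libraries. Of the semaphorins below the limit, *Sema4d* had 2, 0 and 3 counts in *Txnip-/-* and 5, 8 and 14 counts in WT libraries, *Sema4a* had 4, 24 and 5 counts in *Txnip-/-* and 0, 0 and 5 counts in WT libraries, and *Sema5a* had 8, 10 and 6 counts in *Txnip-/-* and 0, 8 and 0 counts in WT libraries. *Sema7a*, the ligand of plexin C1, *Sema4g*, *Sema3b* and *Sema6c* did not exceed 7 counts in a library, and *Sema3c*, *Sema3g*, *Sema4f* and *Sema5b* had none. When the filter was lifted, the 11 genes with counts that had been left out (*Sema3e* among them) had adjusted p values of 0.599 to 0.974, and none had an unadjusted p under 0.05.

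Of the Robo and Unc5 receptors, *Robo4* was lower in *Txnip-/-* LSECs. It had 2652, 2926 and 3082 counts in *Txnip-/-* and 4133, 4632 and 3401 counts in WT libraries, which corresponds to 296, 298 and 330 CPM and to 402, 441 and 360 CPM. All *Txnip-/-* libraries were below all WT libraries, and WT replicate 3 was the closest to them. The mean fell from 401 ± 40.8 CPM (SD, n = 3) in WT to 308 ± 18.7 CPM (SD, n = 3) in *Txnip-/-* LSECs, and the log2 fold change was −0.38 (SE 0.092, 95% interval −0.58 to −0.19, edgeR adjusted p = 0.0465). The call lay at both of its thresholds: the fitted fold of 1.303 compares with a required 1.3, and leaving out any library other than WT replicate 3 gave an adjusted p of 0.0928 to 0.336. Without WT replicate 3 the log2 fold change was −0.45 (adjusted p = 0.00178), and with WT replicate 3 as the sole WT library it was −0.22 (adjusted p = 0.541), where that library is assumed to vary like the *Txnip-/-* libraries.

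*Unc5b*, the netrin receptor of endothelium, was the one gene above 30 CPM besides *Plxnd1* with a higher mean in *Txnip-/-* LSECs. It had 110, 111 and 127 CPM in *Txnip-/-* and 95.002, 109 and 92.0 CPM in WT LSECs. The groups were separate by less than 1 CPM, and the log2 fold change was 0.23 (SE 0.11, 95% interval 0.0030 to 0.46, edgeR adjusted p = 0.427). Without WT replicate 3 it was 0.18 (adjusted p = 0.496). *Robo1*, the receptor through which Slit proteins classically act, had 9.49, 9.38 and 13.04 CPM in *Txnip-/-* and 10.2, 11.9 and 8.25 CPM in WT LSECs, with a log2 fold change of 0.069 (adjusted p = 0.954). The ligand *Ntn1* had 0, 30 and 31 counts in *Txnip-/-* and 12, 9 and 25 counts in WT libraries, so that the lowest and the highest libraries were both *Txnip-/-*.

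Of 47 partner genes of semaphorins and plexins (co-receptors, GTPases, kinases and cytoskeletal effectors), 41 were tested, 25 with a lower and 16 with a higher level in *Txnip-/-* LSECs, and their median log2 fold change was −0.071. Of these, 2 were called, both lower, against 0.932% of all genes. *Tyrobp*, the adaptor DAP12, had 45, 60 and 53 counts in *Txnip-/-* and 161, 163 and 114 counts in WT libraries, and fell from 14.4 ± 2.05 to 5.60 ± 0.55 CPM (SD, n = 3 each, log2 fold change −1.36, edgeR adjusted p = 0.00978). *Trem2*, a receptor that signals through this adaptor, had 38, 16 and 19 counts in *Txnip-/-* and 108, 85 and 67 counts in WT libraries, and fell from 8.57 ± 1.76 to 2.64 ± 1.41 CPM (SD, n = 3 each, log2 fold change −1.70, edgeR adjusted p = 0.0495). The call of *Tyrobp* was lost without *Txnip-/-* replicate 1 (adjusted p = 0.0534), WT replicate 1 (0.0857) or WT replicate 2 (0.0735), and that of *Trem2* without *Txnip-/-* replicate 2 (0.172), *Txnip-/-* replicate 3 (0.158), WT replicate 1 (0.321) or WT replicate 2 (0.16), with log2 fold changes of −1.29 or below in each of these fits. Both are known from myeloid cells, where they form a complex with plexin A1 that receives *Sema6d*.

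The co-receptors and effectors used by endothelium gave smaller differences. *Nrp1* had 458 ± 27.4 CPM in *Txnip-/-* and 494 ± 84.5 CPM in WT LSECs (SD, n = 3 each, edgeR adjusted p = 0.788). *Nrp2* had 591 ± 16.6 CPM in *Txnip-/-* and 616 ± 54.8 CPM in WT LSECs (SD, n = 3 each, edgeR adjusted p = 0.869). *Rnd3*, a GTPase that lacks hydrolysing activity and opposes RhoA, and *Dpysl2*, the collapsin response mediator downstream of *Sema3a*, passed an unadjusted p of 0.05 alone, with log2 fold changes of −0.31 (adjusted p = 0.146) and −0.33 (adjusted p = 0.431). Of 26 other guidance genes, 16 were tested, 6 lower and 10 higher, and none was called. In this list *Flrt2*, a membrane ligand of Unc5 receptors, had 144 ± 4.39 CPM in *Txnip-/-* and 121 ± 10.7 CPM in WT LSECs (SD, n = 3 each, log2 fold change 0.25, edgeR adjusted p = 0.301). *Enah*, an actin regulator used by Robo and netrin receptors, had 22, 19 and 36 counts in *Txnip-/-* and 9, 12 and 0 counts in WT libraries (edgeR adjusted p = 0.377). These 2 of the 16 were past an unadjusted p of 0.05, both higher, against 5.48% of all genes. Of the 41 tested partner genes, 4 were past it, all lower, against 6.05% of all genes.

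Markers of other liver cells moved with genotype as well. In bulk samples, fewer cells of a type and less RNA per cell cannot be told apart. For the marker counts below, the shares over all genes were 1.44% called in either direction and 0.932% called lower. A further share, 8.94% of all genes, was lower in *Txnip-/-* with no overlap between the genotypes. The 12 Kupffer cell and macrophage markers summed to 279 to 311 CPM in *Txnip-/-* and 718 to 747 CPM in WT libraries; 11 were tested, all 11 were lower, 10 were called, and none was at 0 in all libraries. *Plxnb2*, *Plxnc1*, *Plxna1*, *Tyrobp* and *Trem2* are also expressed by macrophages, and the part of these cells in their values was not tested. Macrophage expression of the other guidance and partner genes, which include genes with little difference, was not examined. The 8 LSEC markers summed to 2324 to 2839 CPM in *Txnip-/-* and 2619 to 4911 CPM in WT libraries; all 8 were lower and 2 were called (*Stab1* and *Mrc1*). *Lyve1* supplied most of this sum, with means of 1698 CPM in *Txnip-/-* and 2927 CPM in WT LSECs. It was lowest in *Txnip-/-* replicate 1 (13206 counts) and next lowest in WT replicate 3 (14366 counts). WT replicates 1 and 2 held its highest counts (35772 and 39680), as for *Sema6a*. *Stab1*, *Stab2*, *Fcgr2b*, *Gata4* and *Mrc1* kept the genotypes apart in every library, whereas *Lyve1*, *Oit3* and *Clec4g* overlapped. The part of macrophages in the levels of these 8 genes was not tested. The 10 stellate cell markers summed to 46.8 to 57.9 CPM in *Txnip-/-* and 27.0 to 33.8 CPM in WT libraries, with all 8 tested members higher and 1 called, and the 8 hepatocyte markers to 57.2 to 63.6 CPM in *Txnip-/-* and 49.7 to 52.3 CPM in WT libraries, with none called. Cholangiocyte markers stayed under 8 CPM in sum, and lymphocyte and neutrophil markers under 2 CPM, with 5 of 7 and 3 of 5 at 0 in every library.

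The 8 markers shared by all endothelial cells, which include *Pecam1* and *Cdh5*, summed to 3267 to 3611 CPM in *Txnip-/-* and 3506 to 4187 CPM in WT libraries. All 8 were lower and none was called, with a median log2 fold change of −0.13. Set against these markers, *Robo4* had 8.65, 8.26 and 10.1 counts per 100 marker counts in *Txnip-/-* and 11.3, 12.6 and 8.59 in WT libraries. On this scale WT replicate 3 fell among the *Txnip-/-* libraries and the genotypes overlapped. WT replicate 3 also had the highest marker sum, at 4187 CPM beside 3574 and 3506 CPM in WT replicates 1 and 2. *Plxnb2* had 1.27, 1.42 and 1.35 per 100 marker counts in *Txnip-/-* and 1.63, 1.73 and 1.61 in WT libraries, and *Plxnc1* had 1.204, 1.23 and 1.34 in *Txnip-/-* and 1.43, 1.45 and 1.35 in WT libraries. These 2 plexins remained separate, whereas *Plxna1*, *Unc5b* and *Sema6a* overlapped.

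**Figure D4:**
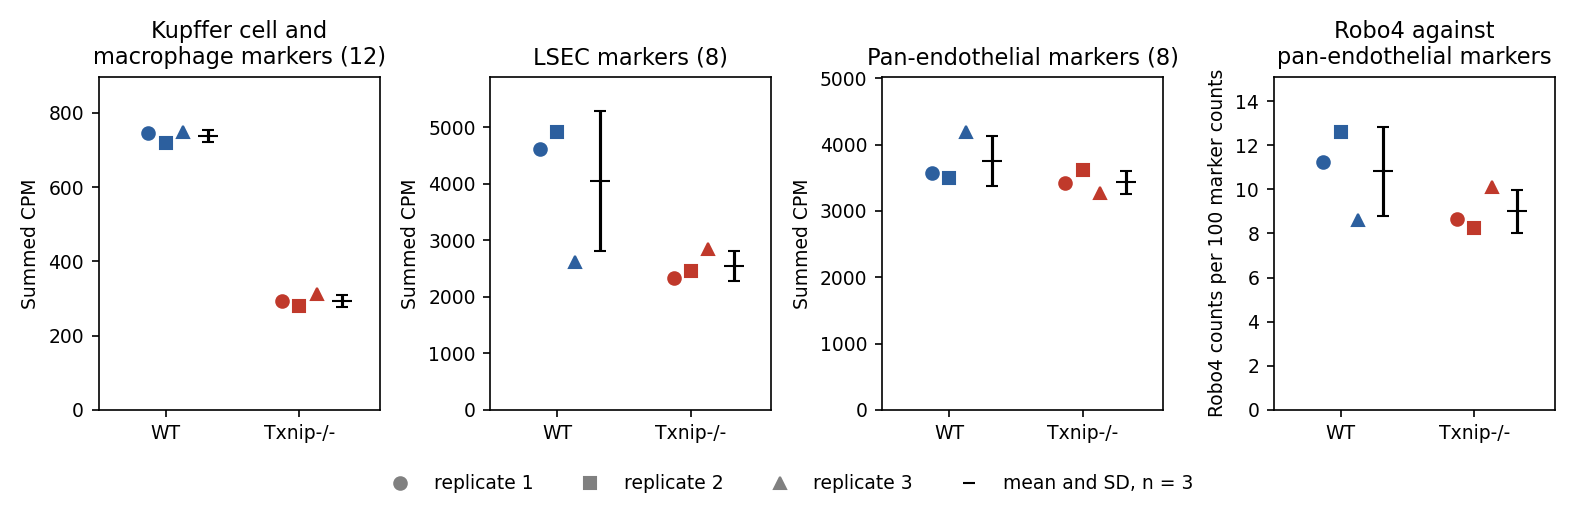
Summed level (CPM) of the Kupffer cell and macrophage, LSEC and pan-endothelial marker lists in each library, and *Robo4* counts per 100 pan-endothelial marker counts (points, with the mean and SD of the 3 libraries of each genotype). The macrophage sums do not overlap (279 to 311 in Txnip-/-, 718 to 747 in WT), and relative to endothelial markers WT replicate 3 (8.59) lies among the Txnip-/- libraries for *Robo4*. *Lyve1* makes up most of each LSEC sum.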

How the data were processed

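LSEC RNA was sequenced from transcript 3′ ends (QuantSeq; 3 *Txnip-/-* and 3 WT libraries). Per the submitters' notes and methods, the authors aligned reads to mm10 with Bowtie2 and counted them per gene with Bedtools, keeping unique and multiple alignments; tool versions, the annotation and strand use are not given in the sources used here. The deposited files hold raw counts per gene symbol.

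Counts were filtered (filterByExpr), scaled (TMM) and tested with genotype as the single term in edgeR 4.0.16 (quasi-likelihood; R 4.3.3), with Benjamini-Hochberg adjustment over 11583 genes. A call needed an adjusted p under 0.05 and a fold above 1.3; the study words its criterion as a log fold change above 1.3, so this reading of it is the less strict one. The script was tested on simulated counts. Totals were 9147764 to 10193952 counts per library, and limits set by 3 counts cover counting error only. An exact permutation test of 3 against 3 libraries cannot go below p = 0.1 and was not used. Marker and partner lists, and the genes described, were chosen with earlier results of these data known. Genes averaging at least 10 counts were named, rarer ones by counts alone; partner and other guidance genes were named where called or at an unadjusted p under 0.05, and *Nrp1* and *Nrp2* always. Alternatives were DESeq2 1.42.0, limma-trend 3.58.1, other scaling and filters, other call rules, a replicate block, a term for WT replicates 1 and 2, exclusion of *Rn45s* and leaving out libraries; leaving out WT replicates 1 and 2 together, and a call rule of a log2 fold change above 1.3, were added after seeing the data.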

Additional observations from a re-analysis of the deposited data

How the results depend on the processing

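The count of guidance genes called (1 as reported) was 1 with upper quartile factors, no scaling, a CPM filter, no *Rn45s* or no fold threshold. It was 0 with DESeq2, limma-trend or RLE factors, where *Robo4* kept an adjusted p under 0.05 (0.00443 with DESeq2) but missed the fold of 1.3, and 0 with the replicate block (*Robo4* adjusted p = 0.14), a term for WT replicates 1 and 2 (adjusted p = 0.298) or both these libraries left out, and 0 with a log2 fold change above 1.3 as threshold (57 genes called over all). It was 2 without a filter on low counts (*Robo4* and *Sema6a*) and 4 at an unadjusted p with the fold threshold. Leaving out single libraries gave 0 to 2. Partner and other guidance genes called (2 as reported) were 1 with upper quartile factors or the replicate block, 0 with the term or without WT replicates 1 and 2, and 0 to 2 with single libraries left out. The median log2 fold change was −0.19 with limma-trend, −0.23 with no scaling (median of all genes −0.082), −0.20 with the term, −0.19 without WT replicates 1 and 2 and −0.29 to −0.085 with single libraries left out. Replicate numbers did not pair the libraries (correlations of deviations −0.047 to 0.017). Over all genes, calls numbered 167 as reported, 301 without a filter, 108 with the block, 107 without WT replicates 1 and 2 and 89 to 301 with single libraries left out.

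*Robo4*, *Plxnb2*, *Plxna1*, *Plxnc1*, *Plxna2* and *Unc5b* kept their direction in each of the 17 alternatives; 33 of 306 values for the 18 genes reversed. The log2 fold change of *Ntn1* was −0.27 with limma-trend and −0.013 with the replicate block. With no scaling it was −0.019 for *Robo1*, −0.054 for *Sema4c* and −0.074 for *Sema6b*. With the term for WT replicates 1 and 2 it was −0.31 for *Ntn1*, 0.13 for *Plxna4*, −0.25 for *Plxnd1*, 0.051 for *Sema3f*, 0.16 for *Sema4b* and 0.28 for *Sema6a*; without these libraries it was −0.31, 0.13, −0.25, 0.052, 0.16 and 0.28 in the same order. With single libraries left out it ran from −0.010 to 1.06 for *Ntn1*, −0.57 to 0.053 for *Plxna4*, −0.034 to 0.27 for *Plxnd1*, −0.11 to 0.20 for *Robo1*, −0.65 to 0.13 for *Sema3a*, −0.45 to 0.014 for *Sema3d*, −0.31 to 0.031 for *Sema3f*, −0.42 to 0.018 for *Sema4b*, −0.17 to 0.19 for *Sema4c*, −0.19 to 0.13 for *Sema6b* and −0.46 to 0.33 for *Sema6d*. The cause of these differences was not tested.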

Other observations

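WT replicate 3 was compared gene by gene with the other libraries, on the log2(CPM + 0.5) scale. It lay nearer to the mean of the *Txnip-/-* libraries than to that of WT replicates 1 and 2 for 12 of the 18 guidance genes. The same held for 50.1% of all genes. *Sema6a* and *Plxnd1* were among the 12. *Robo4* was also among them but lay close to midway, with 360 CPM in WT replicate 3. It had 296 to 330 CPM in *Txnip-/-* libraries and 402 and 441 CPM in WT replicates 1 and 2. The exceptions among the guidance genes were *Plxna1*, *Plxna2*, *Plxnb2*, *Plxnc1*, *Sema3d* and *Unc5b*. The comparison was made after the values were seen and was not tested.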
